A study of Danio rerio with 12 samples.

Results

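Cartilage matrix and chondrocyte genes were followed in whole zebrafish larvae that lacked Elmo3 and in their wild-type controls. The set held 10 gene symbols, col2a1a, col9a1, col9a2, col9a3, col11a1a, col11a2, matn1, matn4, acana and sox9a, and a row belonged to it when its Ensembl identifier carried one of these symbols. In the symbol table COL2A1 and SOX9 each stood at 2 identifiers without a paralogue letter, so the 10 symbols gave 12 rows of the 32520 in the tables, and both rows of such a pair are reported by the last 5 digits of their identifiers. These are COL2A1 (69093) for ENSDARG00000069093, COL2A1 (11407) for ENSDARG00000011407, SOX9 (03293) for ENSDARG00000003293 and SOX9 (43923) for ENSDARG00000043923. Which row of a pair is the a paralogue was not resolved here, and reads shared between the paralogues may have been divided between them.

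The elmo3-/- group comprised 6 samples and the elmo3+/+ group 6 samples, all of them pools of 30 whole larvae at 120 hours post fertilization (hpf). Elmo3 is an adaptor that binds DOCK proteins and so acts on the small GTPase Rac1. The elmo3-/- larvae were homozygous for a frameshifting CRISPR/Cas9 deletion in the second exon, from a single mutant line. The line was made in Tg(fli1:EGFP), in which the fli1 promoter drives a green fluorescent protein in endothelial cells. The paper used littermates as controls of knockout animals, so the reporter is not a stated difference between the genotypes. The labels do not say whether the pools of one genotype came from separate clutches, so p-values measure the spread between pools only.

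Hyaline cartilage is a tissue of chondrocytes that are embedded in the matrix they secrete. Its collagen fibrils are built of type II collagen with type XI collagen in their core and type IX collagen on their surface, and the meshwork is filled by the proteoglycan aggrecan, while matrilins link these components. Sox9 is the transcription factor that switches this gene programme on, and in larval zebrafish the jaw, the gill arches, the braincase and the pectoral fin are largely cartilage. The otic capsule is a part of the braincase. The same collagens are also made outside the head skeleton, among others in the notochord sheath and the fin fold. In a whole larva, fewer chondrocytes and less RNA per chondrocyte cannot be told apart.

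Total counts were 16851426 to 17188263 in elmo3-/- samples and 16927275 to 17577126 in elmo3+/+ samples. Transcripts of elmo3 (ENSDARG00000042126) had 1.24 to 2.63 TPM, a transcript abundance corrected for length and scaled to one total in every sample, in elmo3-/- samples and 1.26 to 2.78 TPM in elmo3+/+ samples, so its level could not check the genotype labels. Of the 21127 genes that passed the filter on low counts, 12 were higher and 9 lower in elmo3-/- at an adjusted p-value under 0.05 (edgeR quasi-likelihood test, Benjamini-Hochberg adjustment over all genes). Mitochondrially encoded genes took 7.28 to 10.3% of the counts in elmo3-/- samples and 6.59 to 8.99% in elmo3+/+ samples. All 12 cartilage rows passed the filter and were detected in each of the 12 samples.

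The transcript most abundant among the 12 rows was COL2A1 (69093), a chain of the type II collagen that makes up the bulk of a cartilage fibril. It had 302 TPM in the lowest, 325 in the median and 351 in the highest elmo3-/- sample, against 318, 369.9 and 402 TPM in elmo3+/+ samples. The ranges of the genotypes overlapped, with 2 elmo3-/- samples below the lowest elmo3+/+ sample. The second row, COL2A1 (11407), was found at a lower level, with 58.0, 67.0 and 83.6 TPM in elmo3-/- samples and 67.9, 78.0 and 97.4 TPM in elmo3+/+ samples.

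Among the type XI collagen genes, col11a1a (ENSDARG00000026165), which encodes a chain of the thin fibril core, had 105, 124 and 131 TPM in elmo3-/- samples and 124, 135 and 143 TPM in elmo3+/+ samples. Its partner col11a2 (ENSDARG00000012422) had 57.3, 72.5 and 80.2 TPM in elmo3-/- samples and 70.1, 76.4 and 93.5 TPM in elmo3+/+ samples. Both genes overlapped between genotypes, and col11a1a was the more abundant of the pair in both.

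Type IX collagen decorates the fibril surface as a heterotrimer of chains encoded by col9a1, col9a2 and col9a3. Transcripts of col9a2 (ENSDARG00000024492) stood at 109.9, 130.4 and 139 TPM in elmo3-/- samples, against 124, 140.0 and 153 TPM in elmo3+/+ samples. The level of col9a3 (ENSDARG00000037845) was 55.7, 64.2 and 70.8 TPM in elmo3-/- samples and 62.5, 75.2 and 82.1 TPM in elmo3+/+ samples. The scarcest of the 3 was col9a1 (ENSDARG00000073699), which had 16.4, 22.1 and 34.1 TPM in elmo3-/- samples, against 26.7, 31.2 and 47.6 TPM in elmo3+/+ samples. In col9a1 5 of 6 elmo3-/- samples lay below the lowest elmo3+/+ sample, and only elmo3-/- replicate 4 reached into the elmo3+/+ range.

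The matrilin genes matn1 and matn4 encode adaptor proteins that join collagen fibrils and proteoglycans. Transcripts of matn1 (ENSDARG00000030215) varied most between elmo3-/- pools, from 31.5 TPM over a median of 54.8 up to 91.0 TPM within elmo3-/- samples and from 55.0 over 75.9 up to 101 TPM within elmo3+/+ samples. In matn4 (ENSDARG00000015947) the values were 42.1, 48.7 and 55.7 TPM in elmo3-/- samples and 53.8, 61.3 and 70.2 TPM in elmo3+/+ samples. On the TPM scale the genotypes were nearly separated in matn4, since 5 of 6 elmo3-/- samples lay below all elmo3+/+ samples and 5 of 6 elmo3+/+ samples lay above all elmo3-/- samples. Such counts can differ on the scaled counts used for the test, on which they were not made.

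Aggrecan, the large proteoglycan whose sulphated side chains hold water in cartilage, was represented by acana (ENSDARG00000035891). It was the scarcest of the 12 rows, with 1.02, 1.41 and 2.21 TPM in elmo3-/- samples and 1.34, 2.17 and 3.35 TPM in elmo3+/+ samples, which rested on 90 to 186 and 116 to 285 counts per sample. For the regulator, SOX9 (03293) had 25.1, 33.9 and 38.1 TPM in elmo3-/- samples and 28.6, 37.8 and 44.7 TPM in elmo3+/+ samples. The other row, SOX9 (43923), had 23.4, 25.3 and 28.1 TPM in elmo3-/- samples and 24.7, 27.1 and 28.5 TPM in elmo3+/+ samples. Both SOX9 rows overlapped broadly between the genotypes.

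**Figure D1:**
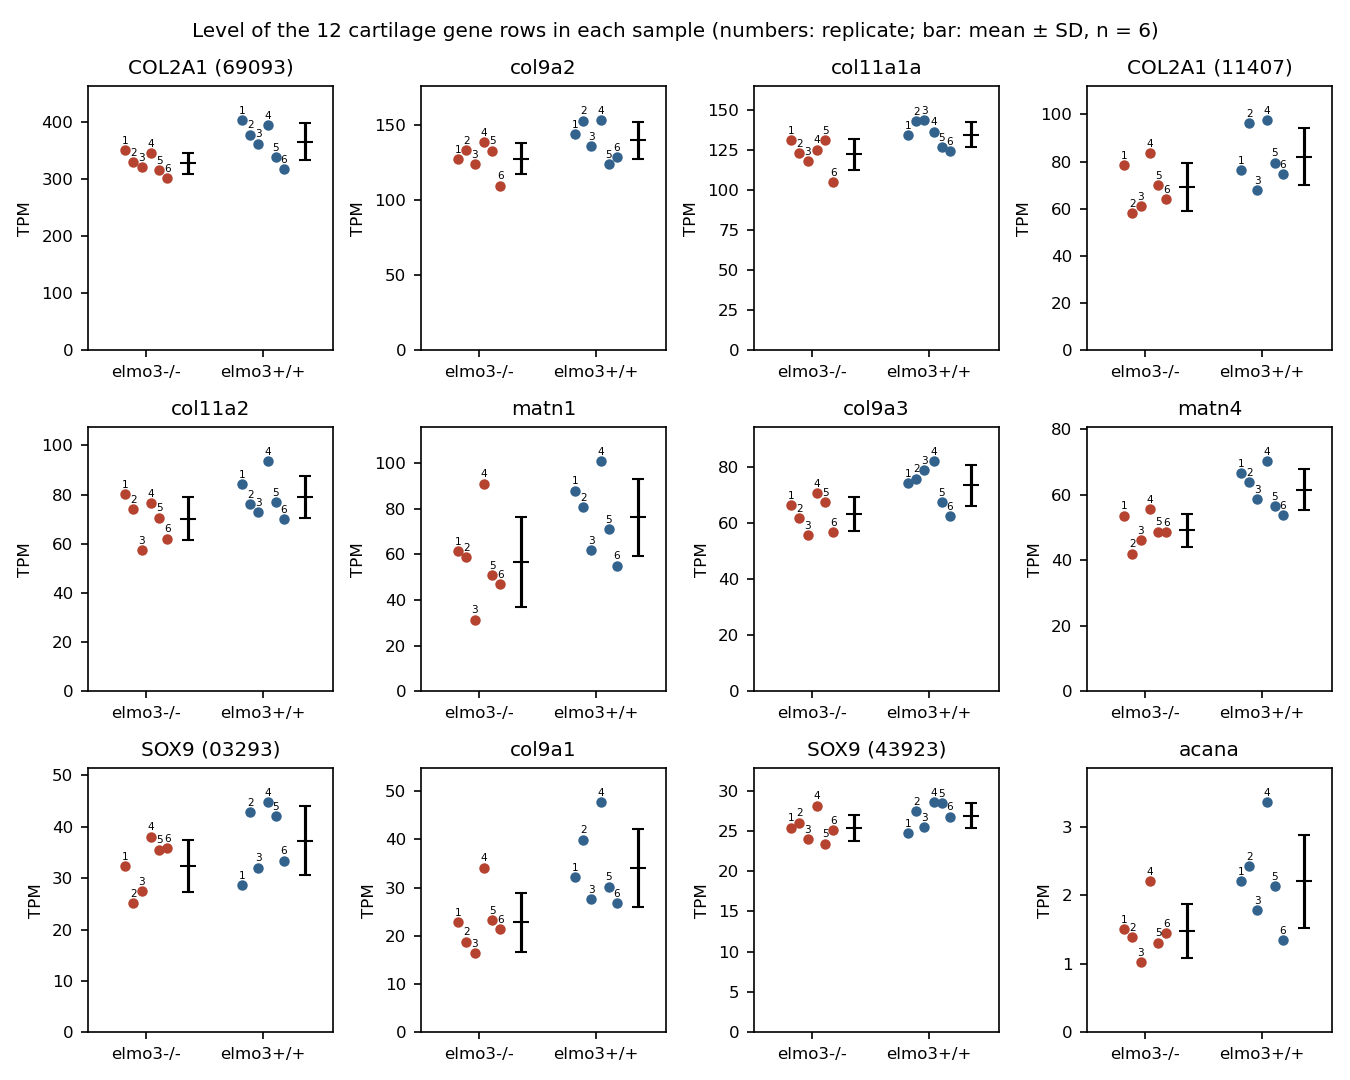
Level in TPM (vertical axes, each starting at 0) of the 12 cartilage rows in each elmo3-/- sample (left, red) and elmo3+/+ sample (right, blue), numbered by replicate, with the mean and SD of 6 samples as a black bar. The genotypes overlap in all 12 rows. Replicate 4 is the highest sample of both genotypes in every row except COL2A1 (69093), col11a1a and col11a2.

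Ordered by mean TPM in elmo3+/+ larvae, COL2A1 (69093) came first with 365 ± 32.8 TPM, well above col9a2 with 139.9 ± 12.3 and col11a1a with 135 ± 7.96 TPM (SD, n = 6 each). These genes did not separate from each other, as col9a2 exceeded col11a1a in 4 of 6 elmo3+/+ samples and in 5 of 6 elmo3-/- samples. A middle group followed, in which COL2A1 (11407), col11a2, matn1 and col9a3 lay at 82.0 ± 12.1, 78.9 ± 8.55, 76.2 ± 17.0 and 73.6 ± 7.30 TPM and neighbours overlapped. The position of matn1 in this group was not fixed, for matn1 was above col9a3 in 1 of 6 elmo3-/- samples and in 4 of 6 elmo3+/+ samples. Below them matn4 had 61.6 ± 6.30 TPM and was under col9a3 in all 12 samples. SOX9 (03293), col9a1 and SOX9 (43923) formed a lower group at 37.3 ± 6.73, 34.03 ± 8.16 and 26.9 ± 1.56 TPM, and acana closed the order at 2.21 ± 0.677 TPM. In elmo3-/- larvae col9a1 was below SOX9 (43923) in 5 of 6 samples, whereas in elmo3+/+ larvae it was above this row in 5 of 6 samples. The summed level of the 12 rows was 968 ± 82.8 TPM in elmo3-/- larvae and 1113 ± 101 TPM in elmo3+/+ larvae (SD, n = 6 each).

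The spread between pools of one genotype differed among the genes. The coefficient of variation was 34.9% in elmo3-/- and 22.2% in elmo3+/+ samples for matn1, 26.9% and 24.0% for col9a1, and 26.8% and 30.7% for acana. The abundant collagen rows were steadier, with 5.66% in elmo3-/- and 8.98% in elmo3+/+ samples for COL2A1 (69093) and 7.95% and 8.76% for col9a2. The count behind acana was low, and its share in this spread was not tested.

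The comparison of elmo3-/- with elmo3+/+ larvae asked whether loss of Elmo3 altered these transcripts. None of the 12 rows passed an adjusted p-value of 0.05 in the edgeR test, at a background of 0.0994% of all genes tested in either direction and 0.0426% in the lower one. DESeq2 and limma on TPM called none of the 12 rows either. An edgeR fit with the replicate number as a block called col9a1 alone among them (adjusted p = 0.0309), but the numbers were not taken as pairs. All 12 fitted log2 fold changes were below 0, as were 48.9% of all genes tested, and their median was -0.13, beside 0.0045 over all genes. Without an adjustment, 3 of the 12 rows were lower in elmo3-/- at p under 0.05, namely col9a1, matn4 and acana, where 4.95% of all genes were lower and 4.58% higher. No row was free of overlap between the genotypes in CPM, the count divided by the scaled library size, while 0.431% of all genes were. The 12 rows share pools and move together, as described below, so that their counts are not independent observations. Which rows lay below 0 depended on single samples, and without elmo3-/- replicate 6 this held for 9 of the 12, and without elmo3-/- replicate 5 or elmo3+/+ replicate 5 for 11.

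The lowest fold changes were those of col9a1 and acana. The level of col9a1 was 22.8 ± 6.13 TPM in elmo3-/- and 34.03 ± 8.16 TPM in elmo3+/+ larvae (SD, n = 6 each), which gave a fitted log2 fold change of -0.51. Its standard error was 0.14 and its adjusted p in edgeR 0.489, with a 95% interval of 0.568 to 0.870 for the ratio. In acana the log2 fold change was -0.51 (SE 0.19, edgeR adjusted p = 0.499), with an interval of 0.536 to 0.925 for the ratio. For matn4 it was -0.25 (SE 0.07, edgeR adjusted p = 0.489), with an interval of 0.752 to 0.936. These 3 intervals were computed gene by gene and do not allow for the number of genes tested. With 1 surrogate variable the log2 fold changes were -0.34 for col9a1, -0.36 for acana and -0.24 for matn4. The unadjusted edgeR p-values were then 0.0145, 0.0733 and 0.00664, so that acana was no longer under 0.05.

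In matn1 the log2 fold change of -0.36 (SE 0.19, edgeR adjusted p = 0.566) went with an interval of 0.590 to 1.03. In this fit, without a block, the interval includes equal levels in both genotypes. With the replicate number as a block matn1 was at -0.39, with an unadjusted edgeR p under 0.05 and an adjusted p of 0.288. The numbers were not taken as pairs, so whether matn1 differed was left undecided. The 2 rows of COL2A1 had log2 fold changes of -0.17 for 11407 and -0.08 for 69093, and col9a3 had -0.15. With 1 surrogate variable COL2A1 (11407) was at -0.06. The remaining rows were col11a2 with -0.08, col9a2 and col11a1a with -0.05 each, SOX9 (03293) with -0.11 and SOX9 (43923) with -0.01. Their adjusted p-values in the edgeR fit lay between 0.568 for COL2A1 (11407) and 0.971 for SOX9 (43923). For the narrowest of them, SOX9 (43923), the 95% interval of the ratio was 0.902 to 1.09.

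TPM values and fitted fold changes are on different scales. In limma on log2(TPM + 1) the median difference over all genes was -0.06 and that of the cartilage rows -0.20, so part of the gap between the TPM means above was shared by the genes at large. With total count scaling the corresponding medians were -0.05 and -0.18.

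**Figure D2:**
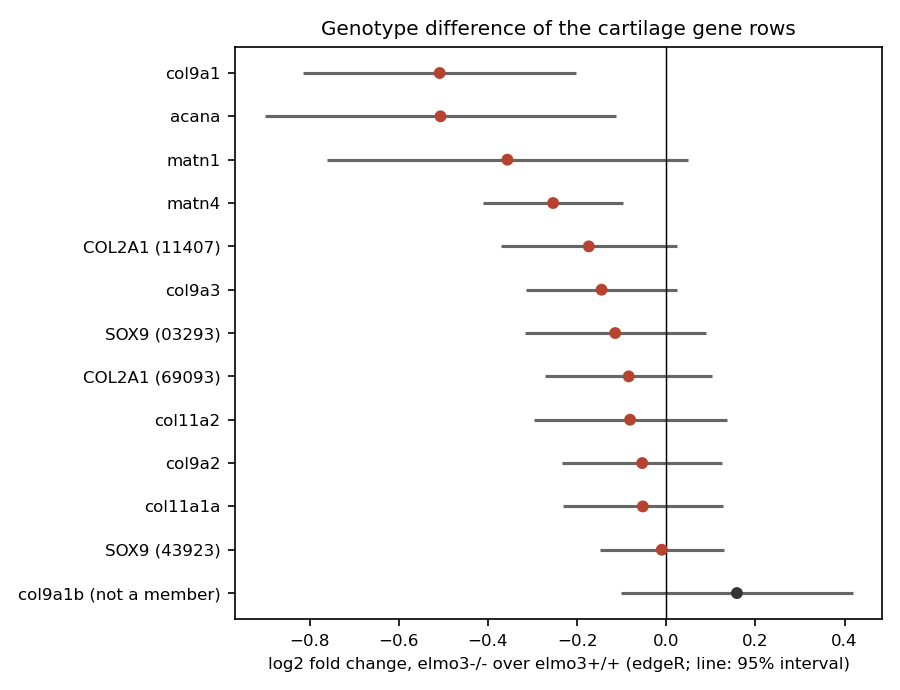
Log2 fold change of elmo3-/- over elmo3+/+ larvae (horizontal axis, edgeR) for the 12 cartilage rows in red and for the paralogue col9a1b in grey, with the 95% interval of each gene as a line. All 12 red points lie below 0, and the lines of col9a1, acana and matn4 do not reach 0 before adjustment for the number of genes, while no row passed the adjusted threshold.

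The balance between related transcripts within a sample is a second readout, which does not depend on library scaling. In 5 ratios, between chains of one collagen, between the matrilins and between the type II collagen rows and their regulator, the genotypes were compared by a two-sided exact permutation test over 924 divisions of the samples, with p-values adjusted over the 5. The log2 TPM ratio of col9a1 to col9a2 was -2.52 ± 0.32 in elmo3-/- larvae and -2.07 ± 0.23 in elmo3+/+ larvae, a difference of -0.46 (SD, n = 6 each, exact p = 0.0216, adjusted 0.0812). In 5 of 6 elmo3-/- samples the ratio was below that of every elmo3+/+ sample. For col9a1 to col9a3 the ratio was -1.51 ± 0.26 in elmo3-/- larvae and -1.14 ± 0.26 in elmo3+/+ larvae, a difference of -0.37 (SD, n = 6 each, exact p = 0.0325, adjusted 0.0812). Both ratios missed the adjusted threshold with all 12 samples, and both passed it when elmo3-/- replicate 4 was left out, with -0.56 (exact permutation test, adjusted p = 0.0108) for col9a2 and -0.46 (adjusted p = 0.0162) for col9a3 as the partner. In the other 11 settings that left out 1 sample neither passed, and the adjusted p reached 0.184 for both. These ratios share col9a1, whose own log2 fold change was -0.51, beside -0.05 for col9a2 and -0.15 for col9a3. They are therefore not independent of each other or of the col9a1 difference.

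The other 3 ratios differed by less than the spread between samples. The ratio of col11a1a to col11a2 was 0.81 ± 0.13 in elmo3-/- larvae and 0.77 ± 0.16 in elmo3+/+ larvae on the log2 scale (SD, n = 6 each, exact p = 0.721, adjusted 0.820). That of matn4 to matn1 was -0.14 ± 0.44 in elmo3-/- larvae and -0.28 ± 0.19 in elmo3+/+ larvae (SD, n = 6 each, exact p = 0.506, adjusted 0.820). The summed COL2A1 rows over the summed SOX9 rows gave 2.78 ± 0.14 in elmo3-/- larvae and 2.81 ± 0.21 in elmo3+/+ larvae (SD, n = 6 each, exact p = 0.820, adjusted 0.820).

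The zebrafish tables hold a second alpha 1 gene of type IX collagen, col9a1b (ENSDARG00000031483), which is no member of the set and was looked up after the values of col9a1 had been seen. It was the main alpha 1 transcript, with 186, 215 and 243 TPM in elmo3-/- samples and 175, 193 and 234 TPM in elmo3+/+ samples. Its log2 fold change was 0.16 (SE 0.12, edgeR adjusted p = 0.677). The sum of col9a1 and col9a1b was 235.7 ± 19.3 TPM in elmo3-/- larvae and 235.6 ± 19.6 TPM in elmo3+/+ larvae (SD, n = 6 each). The part of this sum that came from col9a1 was 9.81 ± 3.14% in elmo3-/- larvae and 14.6 ± 4.09% in elmo3+/+ larvae, which was not tested. Reads that fit both paralogues could shift this division, and the division of such reads was not examined.

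**Figure D3:**
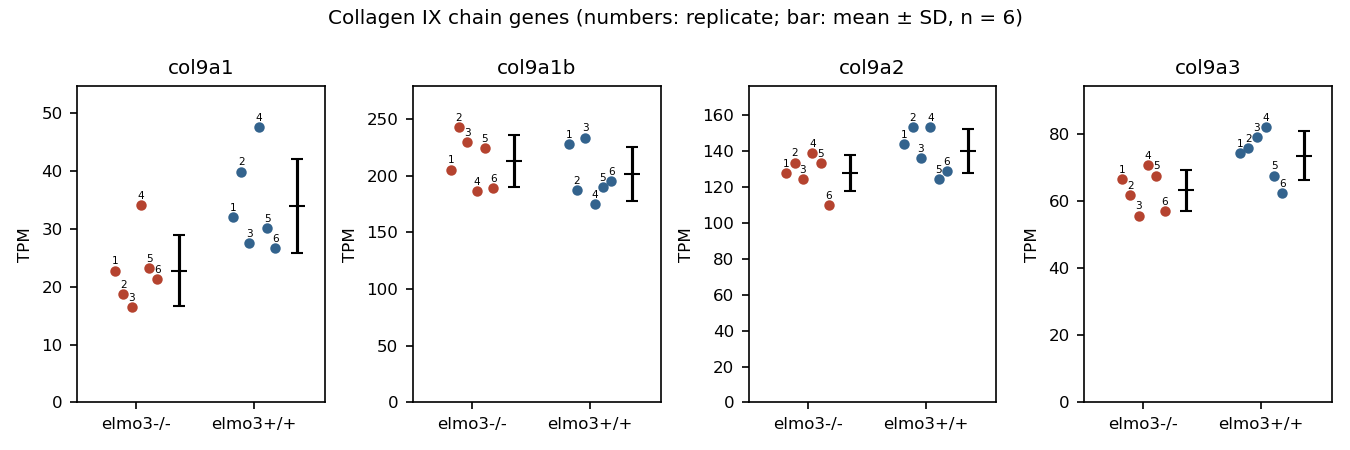
Level in TPM (vertical axes, each starting at 0) of the collagen IX genes col9a1, col9a1b, col9a2 and col9a3 in elmo3-/- samples (left, red) and elmo3+/+ samples (right, blue), numbered by replicate, with mean and SD of 6 samples as a black bar. Points of col9a1 lie at 16.4 to 34.1 TPM in elmo3-/- and 26.7 to 47.6 TPM in elmo3+/+ larvae, and those of col9a1b at 186 to 243 and 175 to 234 TPM.

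Apart from genotype, the cartilage rows varied together from pool to pool. For each gene the log2 CPM deviation of a sample from the mean of its own genotype was taken, and these deviations were correlated over the 12 samples, which share library and scaling with each other across genes. Samples with the same replicate number had similar cartilage deviations in both genotypes, as given below. The 12 deviations may therefore hold fewer than 12 independent observations. Over the 66 pairs of rows the median Pearson r was 0.46, with a range of -0.44 to 0.90, and 31 pairs were above 0.5. Over all pairs among 16624 genes with a mean count of at least 50 the median was 0.001 and 12.54% of pairs were above 0.5. On the log2(TPM + 1) scale the median of the 66 pairs was 0.62, but the background over all genes was computed on log2 CPM only.

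The correlations fell into blocks that were drawn after they had been seen. In one block acana went with col9a1 at r = 0.90, with matn1 at 0.89, and col9a1 with matn1 at 0.85, and COL2A1 (11407) joined col9a1 at 0.81. Of these, matn1, col9a1 and acana also had the highest coefficients of variation given above. In each genotype alone, with 6 samples, r between acana and col9a1 was 0.90 in elmo3-/- and 0.92 in elmo3+/+ larvae, and r between acana and matn1 was 0.96 and 0.92. A second block held the abundant fibril genes, with r = 0.85 between COL2A1 (69093) and col9a2, 0.84 between col9a2 and col11a1a, 0.80 between COL2A1 (69093) and col11a2, and 0.78 between col9a2 and col9a3. Its lowest pair was col11a1a with col11a2 at 0.62. Here the genotypes differed, with 0.79 in elmo3-/- and 0.11 in elmo3+/+ larvae for that pair. For col9a2 with col11a1a r was 0.93 and 0.50, whereas for COL2A1 (69093) with col9a2 it was 0.88 and 0.83. The 20 pairs between these blocks had a median r of 0.39, beside 0.83 over the 6 pairs within the first and 0.78 over the 10 pairs within the second. They ranged from -0.04 for col9a1 with col11a1a to 0.73 for matn1 with col11a2, and 4 of them were above 0.5. On the log2(TPM + 1) scale the median between the blocks was 0.61, so the blocks were less distinct there. The gene matn4 was related to both, with 0.70 to COL2A1 (11407) and 0.73 to COL2A1 (69093).

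The SOX9 rows had lower mean correlations than the matrix genes. SOX9 (03293) had a mean r of -0.0049 with the other 11 rows and SOX9 (43923) one of 0.24, beside 0.33 to 0.54 for the matrix genes. Single pairs of SOX9 (03293) with matrix rows ranged from -0.44 for COL2A1 (69093) to 0.55 for COL2A1 (11407), with 0.51 for col9a1, and those of SOX9 (43923) from 0.03 for matn4 to 0.51 for col11a2. These values depended on the scale. On log2(TPM + 1) the pairs of SOX9 (03293) ranged from -0.01 to 0.77 and those of SOX9 (43923) from -0.08 to 0.62. On log2 CPM within one genotype, with 6 samples, some pairs differed in sign. SOX9 (43923) had r = 0.84 with COL2A1 (69093) in elmo3-/- and -0.52 in elmo3+/+ larvae, and 0.72 and -0.69 with col9a2. With acana it had one sign, at 0.40 and 0.07. Between the SOX9 rows r was -0.71 in elmo3-/- and 0.69 in elmo3+/+ larvae.

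**Figure D4:**
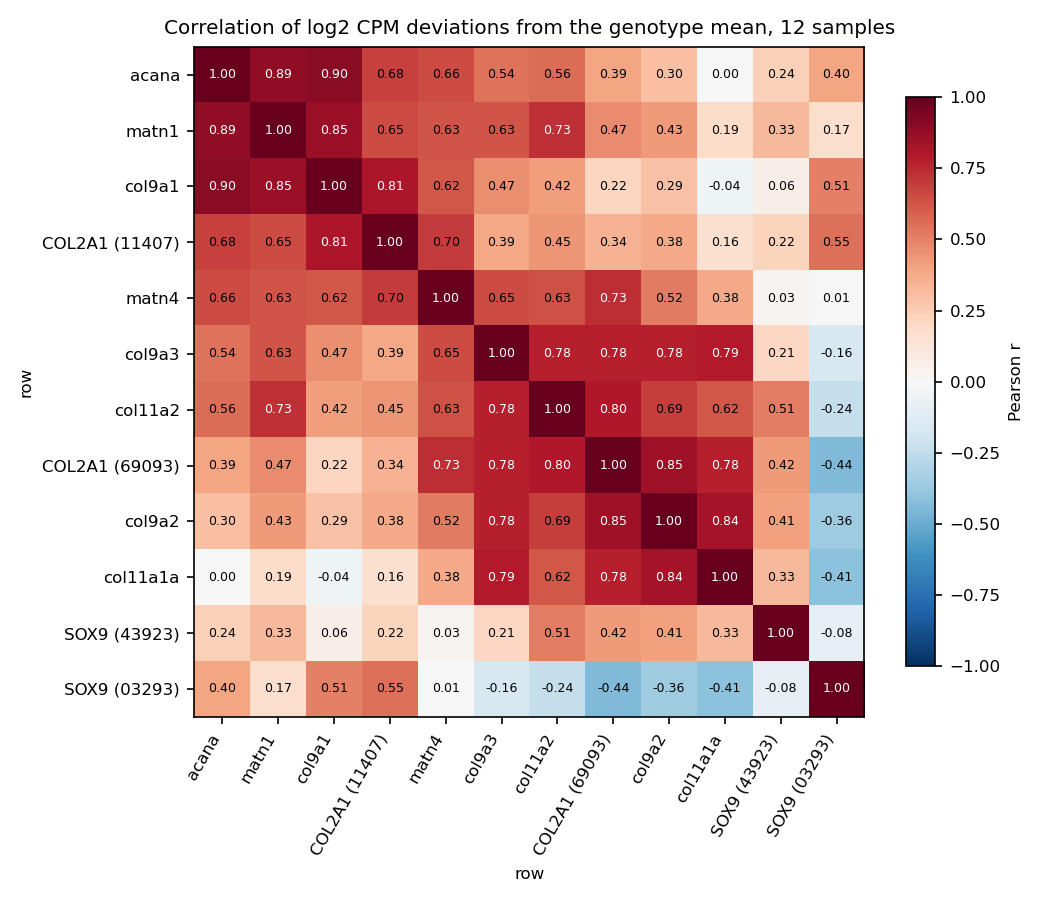
Pearson r (colour and printed value) between the log2 CPM deviations of the 12 cartilage rows from their genotype means, over 12 samples. Warm blocks join acana, matn1, col9a1 and COL2A1 (11407) at the top left and col9a3, col11a2, COL2A1 (69093), col9a2 and col11a1a in the middle, and most, though not all, pairs of the SOX9 rows at the lower right are paler or blue, with 0.55 as the highest.

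The pools behind this pattern could be named. The mean of the standardised deviations of the 12 rows was lowest in replicate 6 of either genotype, at -1.30 in elmo3-/- and -1.04 in elmo3+/+ larvae, and replicates 1, 2 and 4 were above 0 in both, at 0.79, 0.61 and 0.65 in elmo3-/- and 0.45, 0.34 and 0.80 in elmo3+/+ larvae. Replicates 3 and 5 were below 0 in both, at -0.53 and -0.21 in elmo3-/- and -0.40 and -0.16 in elmo3+/+ larvae. For acana, matn1 and col9a1 elmo3-/- replicates 3 and 4 were the extremes, and matn1 deviated by -0.69 in the one and by 0.63 in the other on the log2 scale. In elmo3+/+ larvae the extremes of these genes were replicates 4 and 6, with acana at 0.58 and -0.64. COL2A1 (11407) had other extremes, replicates 1 and 6 in elmo3-/- and replicates 2 and 3 in elmo3+/+ larvae. When both samples numbered 4 were left out, a setting chosen after seeing the data, the median r of the 66 pairs was 0.49 and that of acana with matn1 0.86.

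**Figure D5:**
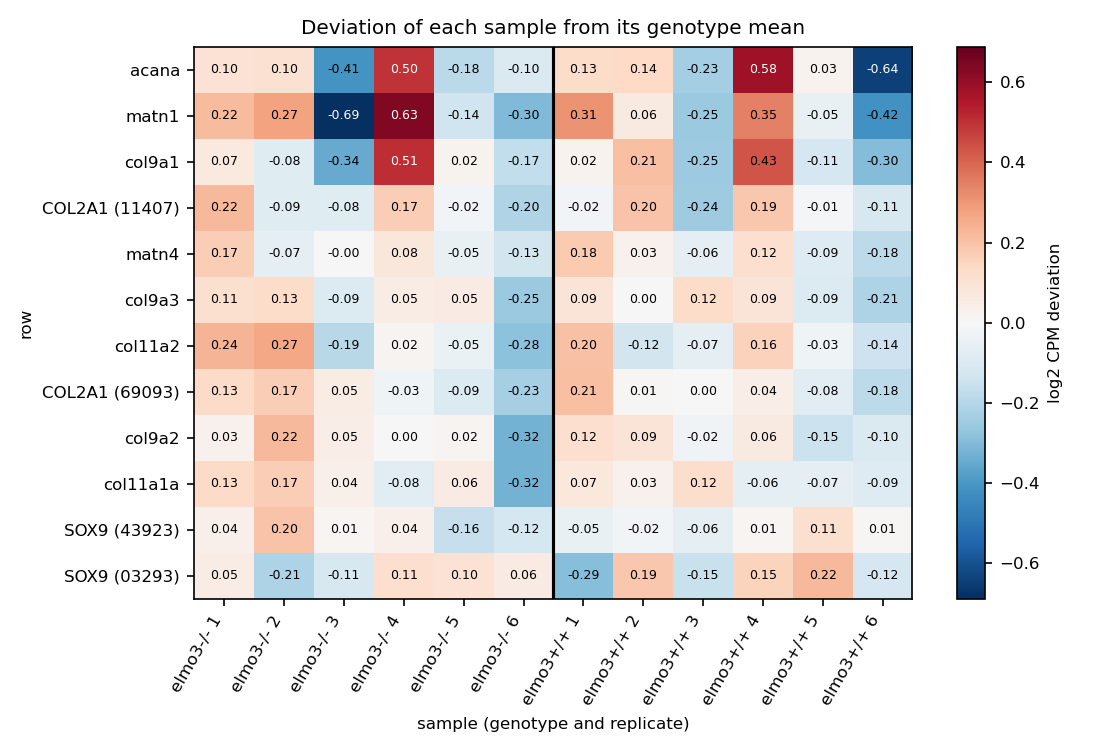
Deviation of each sample (columns, elmo3-/- replicates left and elmo3+/+ replicates right of the line) from the mean of its genotype in log2 CPM (colour and printed value) for the 12 cartilage rows. The largest values belong to acana, matn1 and col9a1 in samples numbered 3, 4 and 6, where matn1 ranges from -0.69 to 0.63 in elmo3-/- larvae.

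Other measures were set beside the cartilage rows. Over the 12 deviations from the genotype means, the mean deviation of the cartilage rows had r = 0.70 with the mitochondrial share of the counts, -0.06 with the TMM factor and 0.02 with the total count. The mitochondrial share was highest in elmo3-/- replicate 2 at 10.3% and lowest in elmo3+/+ replicate 6 at 6.59%. With the summed CPM of other lists, r was 0.79 for other cartilage matrix genes, 0.78 for chondrocyte regulators, 0.74 for otic markers, 0.69 for fin fold markers, 0.56 for osteoblast markers, 0.51 for notochord markers, 0.44 for tendon and perichondrium markers, 0.30 for collagen folding and secretion and 0.27 for glycosaminoglycan synthesis. The part of each in the pattern was not tested.

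Of 16612 genes outside the set, the 6 with the deviations most like the mean of the cartilage rows were RBM24, BFSP2, snorc, mt-nd4l, ttll4 and ptp4a3b, with r = 0.93, 0.93, 0.91, 0.91, 0.91 and 0.90 over 12 samples. Of these snorc encodes a small membrane proteoglycan of chondrocytes in mammals, BFSP2 a filament protein of the eye lens, and mt-nd4l a subunit of the mitochondrial respiratory chain. The level of snorc was 5.49 ± 1.52 TPM in elmo3-/- and 7.73 ± 2.61 TPM in elmo3+/+ larvae (SD, n = 6 each), with a log2 fold change of -0.41 (SE 0.23, edgeR adjusted p = 0.580).

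Genes that act beside the cartilage set were then examined as lists, with the 12 rows left out. None of the 9 lists held a gene past the adjusted threshold in edgeR, DESeq2 or limma. The counts at an unadjusted p under 0.05 below stand beside 4.95% of all genes lower and 4.58% higher in elmo3-/-. Counts of log2 fold changes below 0 stand beside 48.9% of all genes, and the medians beside 0.0045. The rows of a list share pools too, so that their counts are not independent observations. Some symbols named below stood at a second identifier too, whose values are not given. The rows named, picked by p-value and count, are MEF2C (ENSDARG00000009418), SLC35D1 (ENSDARG00000027986), FREM2 (ENSDARG00000076856) and OTOF (ENSDARG00000020581). The same holds for COL10A1 (ENSDARG00000054753), FN1 (ENSDARG00000006526) and TNC (ENSDARG00000021948). When 1 surrogate variable was added to the edgeR model, 17 of the 27 log2 fold changes named for the lists came closer to 0 by more than 1.5 times or turned. Of 23 other cartilage matrix rows tested, 19 had a log2 fold change below 0, the median was -0.19, and 3 were lower and none higher at an unadjusted p under 0.05. In this list the second aggrecan gene acanb had 0.633, 1.06 and 1.41 TPM in elmo3-/- samples and 1.20, 1.81 and 2.77 TPM in elmo3+/+ samples, and 4 of 6 elmo3-/- samples lay below the lowest elmo3+/+ sample. Its log2 fold change of -0.77 (SE 0.21, edgeR adjusted p = 0.445) was on 39 to 83 counts in elmo3-/- and 71 to 165 counts in elmo3+/+ samples. With 1 surrogate variable this fold change was -0.41. In the RefSeq assembly GRCz12tu acanb lies on the chromosome of elmo3. No symbol of the cartilage set that was matched to a chromosome lay there. The symbol col9a1 was not matched to one, so the position of this gene was not determined. The link protein gene hapln1a, whose product ties aggrecan to hyaluronan, was at -0.27 on the log2 scale (edgeR adjusted p = 0.499). CILP, a protein of the intermediate layer of cartilage, was at -0.25 (edgeR adjusted p = 0.554, unadjusted 0.0702) and so not among the rows counted as lower.

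Among 25 chondrocyte regulators tested, 15 were below 0 with a median of -0.12, and 2 were lower and none higher at an unadjusted p under 0.05. The transcription factor gene foxc1b had a log2 fold change of -0.30, the growth factor receptor gene FGFR3 one of 0.16 and the transcription factor gene MEF2C one of 0.12, with edgeR adjusted p-values of 0.512, 0.531 and 0.565. Of 30 genes for collagen folding and secretion, 23 were below 0 with a median of -0.09, and 3 were lower and none higher at an unadjusted p under 0.05. These included PPIB, a prolyl isomerase of the endoplasmic reticulum, which had 189, 214 and 227 TPM in elmo3-/- samples and 216, 254 and 281 TPM in elmo3+/+ samples and lies on the chromosome of elmo3 in GRCz12tu. Its log2 fold change was -0.19 (SE 0.07, edgeR adjusted p = 0.499), that of the prolyl hydroxylase gene p4ha1a -0.34 and that of sar1b, a GTPase of the vesicles that leave the endoplasmic reticulum, -0.20.

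Glycosaminoglycan chains of aggrecan are made from nucleotide sugars and sulphate. Of 38 rows for their synthesis 31 were tested, of which 21 were below 0 with a median of -0.09, and 3 were lower and none higher at an unadjusted p under 0.05. These 3 were UGDH, the enzyme that makes UDP-glucuronic acid, SLC35D1, a carrier of nucleotide sugars, and SLC26A2, a sulphate transporter, with log2 fold changes of -0.49, -0.52 and -0.34 and edgeR adjusted p-values of 0.499, 0.499 and 0.520. In UGDH the values were 3.14, 3.89 and 5.42 TPM in elmo3-/- samples and 3.60, 6.68 and 10.1 TPM in elmo3+/+ samples, and the genotypes overlapped. With 1 surrogate variable the log2 fold change was -0.12 for UGDH, -0.11 for SLC35D1 and -0.21 for SLC26A2.

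Markers of other tissues, some of which can hold the same collagens, gave a mixed picture. Of 11 notochord rows 5 were below 0 with a median of 0.03, none passed an unadjusted p of 0.05, and their summed level was 155 to 192 TPM in elmo3-/- and 146 to 216 TPM in elmo3+/+ samples. The notochord transcription factor gene tbxta had a log2 fold change of 0.14 and the 2 rows of the caveolar coat gene CAVIN1 -0.36 and -0.29. Of 13 fin fold rows 4 were below 0 with a median of 0.04, 1 was higher and none lower at an unadjusted p under 0.05, and the sums were 153 to 321 TPM in elmo3-/- and 173 to 343 TPM in elmo3+/+ samples. In this list FREM2, a basement membrane protein, was at 0.33 on the log2 scale (edgeR adjusted p = 0.489), the actinotrichia gene and3 at 0.47 and msx1b, a homeobox gene, at 0.13.

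Of 11 otic rows 9 were below 0 with a median of -0.26, 1 was lower and none higher at an unadjusted p under 0.05, and the sums were 58.5 to 84.3 TPM in elmo3-/- and 66.1 to 97.7 TPM in elmo3+/+ samples. The otolith gene otomp and the inner ear genes OTOF and OTOG had log2 fold changes of -0.85, -0.46 and -0.26, and edgeR adjusted p-values of 0.551, 0.588 and 0.617. None of them was the row counted as lower, since their unadjusted edgeR p-values were 0.0648, 0.0996 and 0.141. The highest otic sum among elmo3-/- samples was that of replicate 4. This sample was also the highest of its genotype in TPM in every cartilage row except COL2A1 (69093), col11a1a and col11a2.

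All 13 osteoblast rows tested were below 0, with a median of -0.15, 1 was lower and none higher at an unadjusted p under 0.05, and the sums were 1304 to 1672 TPM in elmo3-/- and 1313 to 2189 TPM in elmo3+/+ samples. The mineralisation enzyme ALPL had a log2 fold change of -0.15, the matrix protein SPARC -0.12 and COL10A1 -0.65, with edgeR adjusted p-values of 0.617, 0.644 and 0.620. Their unadjusted edgeR p-values were 0.142, 0.175 and 0.149, so the row counted as lower was another one. COL10A1 was at 3.92, 4.50 and 23.4 TPM in elmo3-/- samples, against 5.75, 11.99 and 24.5 TPM in elmo3+/+ samples. The size of its log2 fold change depended on single samples, at -1.27 without elmo3-/- replicate 4 and -0.40 without elmo3+/+ replicate 4. Its sign did not, as the fold change was below 0 in all 21 alternatives. Of 20 tendon and perichondrium rows 17 were below 0 with a median of -0.15, and 3 were lower and 2 higher at an unadjusted p under 0.05. In this list the fibronectin gene FN1 had a log2 fold change of -0.65, the small proteoglycan gene LUM -0.26 and the tenascin gene TNC 0.19, each with an edgeR adjusted p of 0.499. With 1 surrogate variable FN1 was at -0.10 and LUM at -0.11. The sums of the tendon list were 645 to 778 TPM in elmo3-/- and 642 to 910.1 TPM in elmo3+/+ samples. No row of these marker lists, tested or not, was at 0 in all samples. The part of these lists in the values of the cartilage rows was not tested.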

How the data were processed

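RNA of 12 pools of 30 larvae was sequenced on a BGISEQ-500. For each sample the authors deposited estimated counts per gene and TPM, and per the labels the submitters' processing notes name Trim Galore 0.6.4, kallisto 0.4.6 and GRCz11, without their roles. Estimated counts (63.0% whole) were rounded. Symbols were taken from an identifier table, ignoring capitals and, where needed, the paralogue letter. Genotypes were compared with edgeR 4.0.16 in R 4.3.3 (quasi-likelihood test, TMM scaling, filterByExpr, genotype only), with Benjamini-Hochberg adjustment over 21127 genes. log2 CPM used a prior count of 2. A level of 3 counts corresponded to 0.171 to 0.178 CPM, for counting error only. Scripts were tested on simulated data.

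Members and lists were chosen with earlier results of these data known. Of each list the 3 genes with the smallest p-values at a mean count of at least 50 were named, and the 6 genes most like the cartilage rows. Alternatives were DESeq2 1.42.0, upper-quartile and total count scaling, other filters, a replicate block, 1 surrogate variable (sva 3.50.0), limma 3.58.1 on log2 TPM after adding 1 or 0.1, each sample left out in turn and, for ratios, counts in place of TPM or 1 added to TPM. No sequences were printed, because the tables used here hold none.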

Additional observations from a re-analysis of the deposited data

Results flagged for a closer look

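Among 56 sets of 6 values, 2 held a sample far from the others of its genotype, and chance alone flags about 1 in 20 such sets. The mitochondrial share of elmo3+/+ replicate 1 was 8.99%, whereas the other 5 elmo3+/+ samples lay between 6.59 and 7.19%. The summed level of the otic markers in elmo3-/- replicate 4 was 84.3 TPM, whereas the other 5 elmo3-/- samples lay between 58.5 and 66.8 TPM.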

How the results depend on the processing

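No cartilage row and no list gene passed the adjusted threshold under any alternative, with 1 exception. The replicate numbers were not taken as pairs, since the deviations of same-numbered samples correlated by 0.11 on average and above 0.1 in 3 of 6 pairs, and 2 of 6 samples correlated best with their own number. The mean deviation of the cartilage rows alone had the same sign in both samples of all 6 numbers. In both genotypes numbers 6, 3, 5 and 2 followed each other in this order from the lowest value up. For these rows the same-numbered samples were therefore alike, although the numbers were not taken as pairs. With the replicate number as a block 17 genes were called in place of 21, 1 of them a cartilage row, col9a1 at -0.51 (edgeR adjusted p = 0.0309). DESeq2 called 49 genes (28 higher, 21 lower). Leaving out 1 sample at a time gave 17 to 22 genes. The ratio differences then ranged from -0.56 to -0.38 for col9a1 to col9a2, -0.46 to -0.30 for col9a1 to col9a3, -0.015 to 0.072 for col11a1a to col11a2, 0.0029 to 0.26 for matn4 to matn1 and -0.072 to 0.048 for the COL2A1 rows to the SOX9 rows. The log2 fold change of col9a1 ranged from -0.63 to -0.34 over 21 alternatives, that of matn4 from -0.33 to -0.22 and that of acana from -0.62 to -0.36. Signs turned near 0 when a sample was left out in col9a2 (-0.10 to 0.0044), col11a1a (-0.087 to 0.0057), SOX9 (43923) (-0.051 to 0.020), BFSP2 (-0.072 to 0.093), ttll4 (-0.10 to 0.0087) and ELMO3 (-0.066 to 0.14). With 1 surrogate variable they turned in SOX9 (03293) (0.049), BFSP2 (0.043), OTOF (0.0033), col9a1b (-0.0025) and ttll4 (0.012), with a mean count of at least 10 in BFSP2 (7.1e-06), and with total count scaling in ELMO3 (-0.017). On log2(TPM + 1) and log2(TPM + 0.1) they turned in MEF2C (-0.044 and -0.045), RBM24 (-0.060 and -0.063), ptp4a3b (-0.0068 in both) and ELMO3 (-0.022 and -0.034). The cause was not tested. The median over all genes moved by less than 0.1 in each setting.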
